A study of Mus musculus with 2 samples.

Results

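Plasmacytoid dendritic cells (pDCs) were selected by their own transcripts from single-cell RNA profiles of leukocytes of mouse B16-F10 melanomas, and 108 of the 22490 kept cell barcodes met the rule. Barcodes with under 300 genes or with mitochondrial transcripts over 10% of their molecules had been set aside. It was called a pDC with at least 3 unique molecules (UMIs) of Siglech, at least 1 UMI of Cox6a2, Klk1 and Ccr9 together, at most 1 UMI of Cd209a, at most 1 of Xcr1 and Clec9a together, and 0 of Cd3e. Those measured values chose the cells, so the levels of these genes are given as a description and support no test.

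Male mice aged 8 to 12 weeks carried the tamoxifen-inducible Cre recombinase CreERT2 on one allele of Rosa26 (R26CreERT2-ki/wt). Trex1 encodes a DNA exonuclease, and the study asked how its induced loss shapes the response to the tumour. In the group labelled Trex1 fl/fl (iKO) both Trex1 alleles were floxed, and in the control group, Trex1 wt/fl, 1 allele was. Controls therefore carried Cre, received tamoxifen and could lose 1 allele, and as Cre was at Rosa26, deletion was not limited to pDCs. Both groups received 1000 B16-F10 cells, a mouse melanoma line, mixed with Matrigel, placed intradermally on each leg. Daily tamoxifen of 1 mg started on day 5 and lasted 3 days, tumours were collected on day 14, and living CD45+ cells were sorted. Each genotype was run as 1 pool of 4 hashtagged matrices, which served as the replicates. The labels do not say whether each matrix is 1 mouse, so p-values measure the spread between matrices, and genotype and pool cannot be told apart.

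pDCs are the dendritic cells best known for secreting type I interferon when Toll-like receptors 7 and 9 meet nucleic acids in endosomes. The transcription factor Tcf4 sets their identity, Irf8 and Spib act beside it, and Irf7 drives interferon genes and is itself induced by interferon. In tumours they are often few and have been described as poor interferon producers.

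The matrices held 1362 to 6117 deposited barcodes and 17111065 to 96457227 UMIs. No barcode was shared between matrices of 1 pool, 45 were shared between the pools, and no pDC was among them. No pDC had a doublet score over 0.25, against 438 of the kept barcodes, but the highest pDC score was 0.2497, so removing doublets at this score left the pDCs as they were. The median UMI count of kept barcodes was 13048 to 14677 in iKO and 6557 to 11931 in control, while that of pDCs was 11968 to 12606 in iKO and 10646 to 12279 in control. Trex1 had 0 UMIs in the 108 pDCs, so its loss could not be checked in these cells.

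The iKO matrices 1 to 4 held 20, 15, 14 and 15 pDCs, and control matrices 1 to 4 held 5, 4, 35 and 0. As shares of kept barcodes these were 0.517%, 0.254%, 1.07% and 0.611% in iKO. In control they were 0.253%, 0.234%, 1.27% and 0%, where 3 counts of the total would be 0.120% in matrix 4. The groups overlapped, and control matrix 3 had the highest share of all. Exact Clopper-Pearson intervals (95%, counting error only) were wide, from 0.588% to 1.80% in iKO matrix 3 and from 0.0821% to 0.589% in control matrix 1. The mean was 0.614% ± 0.342 in iKO and 0.438% ± 0.564 in control (SD, n = 4 each; exact two-sided permutation p = 0.543, adjusted over both share tests 0.543).

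Among dendritic barcodes, meaning pDCs plus a gate of 608 conventional dendritic cells (cDCs) set by Xcr1, Clec9a and Cd209a, pDCs made up 22.2%, 14.0%, 25.5% and 18.1% in iKO. In control they made up 8.20%, 5.56%, 25.0% and 0%. The means were 19.9% ± 4.97 and 9.69% ± 10.8 (SD, n = 4 each; exact permutation p = 0.143, adjusted 0.286), and the smallest p this design allows is 0.0286. Single matrices decided the size of the difference in kept barcodes, which was 0.0222 points without iKO matrix 3, 0.295 without iKO matrix 2, and 0.114, 0.107 and 0.0294 without control matrix 1, 2 or 4. Without control matrix 3 the iKO mean was higher by 0.452 percentage points of kept barcodes and by 15.4 points of dendritic barcodes (exact permutation p = 0.0571 each, the smallest possible with 3 control matrices). B cells also stood apart there, at 13.5% of kept barcodes against 0.610% to 3.54% in the other 7 matrices. Its part in the pDC share was not tested.

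**Figure D1:**
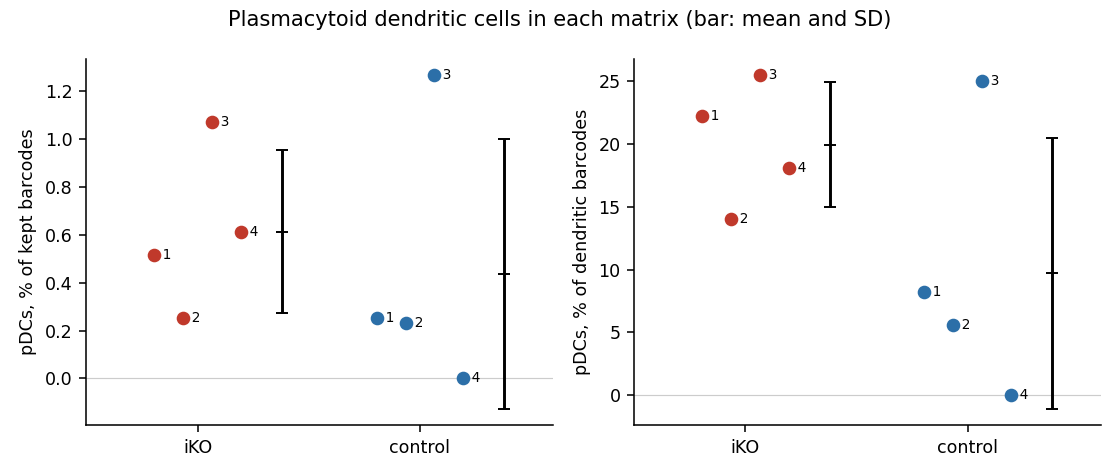
pDCs as a percent of kept barcodes (left) and of dendritic barcodes (right) in each matrix, numbered by replicate, with the mean and SD of 4 matrices a genotype. Control matrix 3, at 1.27% and 25.0%, lies with or above the iKO matrices, and control matrix 4 is at 0%.

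The label was checked against markers the rule had not used. Bst2, a tetherin and interferon-inducible surface protein long used to mark pDCs, had a UMI in all 108 cells but also in 95.1% of cDCs, and it was its level that differed, at 3377 to 5081 CPM in pDCs and 194 to 808 in cDCs. Tcf4 had a UMI in 107 of them, at 1097 to 1418 CPM (UMI counts scaled to a common library total) in iKO and 1296 to 1972 in control. In the cDC gate of the same matrices Tcf4 lay at 67.5 to 110 CPM and in a gate of 703 B cells at 164 to 240. Irf8 ranged from 1995 to 3323 CPM over the 7 matrices with pDCs, above the 443 to 958 CPM of cDCs. Spib lay at 154 to 301 CPM and Runx2, a factor for pDC exit from bone marrow, at 256 to 487. In cDCs Spib reached at most 4.74 CPM and Runx2 16.4. Against cDCs these markers therefore pointed the same way as the label, and against B cells Tcf4 and Runx2 did.

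Of markers of other lineages, Cd79a (B cells) had 8 UMIs in 2 cells, all in control matrix 3, and Klrb1c (natural killer cells) had 0. The summed B and natural killer cell lists were not empty, at 17.6 to 129 and 22.2 to 117 CPM. In all other kept barcodes they were at 26.5 to 715 and 213 to 2506. The summed list of cDC markers, at 446 to 907 CPM in pDCs, overlapped the 810 to 937 CPM of all other kept barcodes. A cell of control matrix 3 held 23 UMIs of 7 B cell genes, and another held 13 UMIs of 1 natural killer cell gene. The plasma cell list was higher in pDCs, at 246 to 439 CPM against 43.7 to 77.2 elsewhere. Cd8b1, a CD8 co-receptor chain, had a UMI in 62.0% of pDCs (median depth 11852.5 UMIs). It was found in 8.72% of cDCs (22419.5 UMIs) and 7.97% of B cells (4368 UMIs), whereas Trac, the T cell receptor alpha constant region, was found in 10.2% of pDCs, 7.73% of cDCs and 8.11% of B cells. Cd8b1 thus exceeded the level in both other gates while Trac did not clearly do so.

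Myeloid transcripts were uneven between cells. In 99 pDCs the macrophage and neutrophil lists together gave at most 39 UMIs, with a median of 9. The other 9 held 71 to 1822 such UMIs and had doublet scores of 0.1559 to 0.2497. Scores of the 99 had a median of 0.0697 and ran from 0.02545 to 0.2497, so the ranges overlapped. Of the 9, 2 were in iKO matrix 1, 4 in iKO matrix 2, 1 in control matrix 1 and 2 in control matrix 3. For several results on genotype the values without these 9 barcodes are also given, a step chosen after the values were seen.

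The cells varied in the genes that chose them. Siglech, a sialic acid-binding receptor, ranged from 3 to 70 UMIs with a median of 26. Ccr9, a gut-homing chemokine receptor, was detected in 106 cells, Cox6a2, a cytochrome c oxidase subunit, in 100, and Klk1, a kallikrein protease, in 93. All of Cox6a2, Klk1 and Ccr9 were present in 89 cells. Just inside the Siglech threshold lay 6 cells with 3 to 5 UMIs, where the median was 0 UMIs of Ly6d and 2 of Irf8, and 1 of them, with 41 and 34 UMIs, held most of both. Just outside lay 6 cells with 1 or 2 UMIs, with medians of 0 UMIs of Ly6d, 2.5 of Irf8 and 36.5 of the macrophage gene Lyz2, against 4 of Lyz2 just inside. A further 55 barcodes passed Siglech and the secondary genes and failed a negative marker. Their Bst2, Tcf4 and Ly6d levels were 4011, 1631 and 1998 CPM, beside 4277, 1322 and 2182 in the pDCs, and 3 of them were in control matrix 4.

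The genes with the highest ratio of pDC level to that of all other kept barcodes, over the 6 matrices with at least 5 pDCs and among genes at 100 CPM or more, were Pgam2, Cox6a2, Sh3bgr, Ccr9, Siglech, Klk1, Gm21762, Paqr5, Klk1b27 and Cd300c. The rule used 4 of them. Pgam2, the muscle form of phosphoglycerate mutase, averaged 111 CPM in pDCs and 0.252 elsewhere, and its ratio ranged from 151 to 2049 over matrices. Sh3bgr averaged 181 CPM and 0.672, and Cd300c, an activating receptor of the CD300 family, 302 and 1.71. Since the cells were chosen by expression, this ranking is a description.

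**Figure D2:**
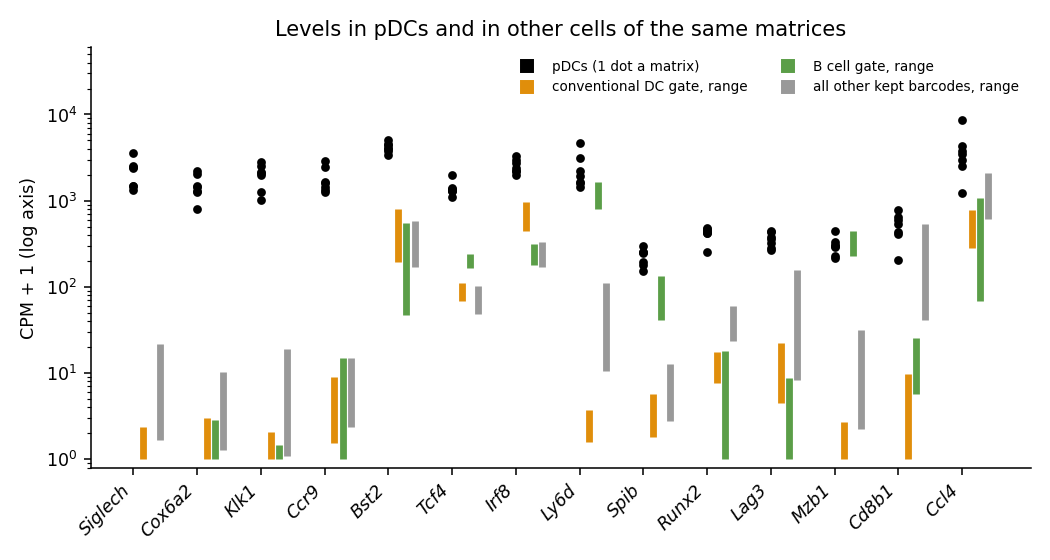
Level (CPM + 1, log axis) of 14 genes in pDCs, with 1 dot for each of 7 matrices, beside the range over 8 matrices in cDCs, B cells and all other kept barcodes. The first 4 genes belong to the rule, and Tcf4 and Runx2, which do not, lie above the ranges of all 3 other sets.

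Interferon genes gave few UMIs. Of 20 type I and type III interferon genes examined, 18 had 0 UMIs in 108 pDCs, Ifnb1 among them, which allows a share of up to 2.78% of cells with a UMI and sets no limit on cells that express the gene below this depth. The other two, Ifna1 and Ifna16, had 7 UMIs together, all in 1 cell of iKO matrix 4. Of the other secreted products, Ccl4, a chemokine, had UMIs in 98 pDCs (90.7%), against 72.9% of cDCs and 38.3% of B cells. Its level was 3495, 2557, 3773 and 4255 CPM in iKO and 2985, 8729 and 1231 CPM in control matrices 1 to 3, so the groups overlapped.

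Whether pDC transcripts differed by genotype was tested on counts summed over the pDCs of each matrix, with edgeR's quasi-likelihood test, in 4 iKO and 2 control matrices (1 and 3). Of 3558 genes, 5 passed an adjusted p under 0.05, which is 0.141%, with 1 higher in iKO (0.0281%) and 4 lower (0.112%). A further count, genes whose CPM in all 4 iKO matrices lay above all 3 control matrices with pDCs, was 173 (4.86%), and 113 (3.18%) lay below. In simulated counts of this comparison 72% of genes changed 4-fold were recovered and 9.43% of calls were false, above the 5% aimed for, so calls here are loose and misses frequent.

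H2-Q7, a non-classical MHC class I molecule of the Qa-2 family, was the gene that rose. It lay at 1597, 1443, 1649 and 1311 CPM in iKO and at 716, 510 and 625 CPM in control matrices 1 to 3. Every iKO matrix was above every control matrix, and the log2 fold change was 1.15 ± 0.19 (SE; edgeR adjusted p = 0.0416). The related genes H2-Q4 and H2-Q6 were also higher in all 4 iKO matrices. Reads could be split among similar genes of the family, so which of the family changed is uncertain. H2-Q4 was at 304, 274, 305 and 306 CPM in iKO and 85.3, 111 and 145 in control (log2 fold change 1.18 ± 0.26, edgeR adjusted p = 0.171). Leaving out any 1 of the 6 matrices took the call of H2-Q7 away (edgeR adjusted p = 0.0606 to 0.254), while the log2 fold change stayed at 1.08 to 1.25. Where a control matrix was left out, 1 remained, which was assumed to vary like the iKO matrices. Without the myeloid-rich barcodes H2-Q7 was at 1311 to 1678 CPM in iKO and 510 to 907 in control.

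S100a8, S100a9, Cxcl2 and Ifitm1 fell, by 7.56, 7.29, 6.87 and 6.89 on the log2 scale (edgeR adjusted p = 0.00945, 0.00945, 0.00945 and 0.0300). S100a8 and S100a9 encode the neutrophil protein calprotectin. The values behind the fall rest largely on 1 barcode of control matrix 1, which held 1805 neutrophil-list UMIs of 18921. That barcode had 842 of the 845 S100a8 UMIs of its matrix, 873 of 879 of S100a9, 238 of 241 of Cxcl2 and 168 of 170 of Ifitm1. It had 3 UMIs of Siglech, the lowest number the rule allows, and 0 of Irf8 and Ly6d. The pDCs of control matrix 1 held 58634 UMIs in all, so this barcode lowered the CPM of pDC genes there. Without it the summed pDC identity genes of that matrix lay at 32360 CPM, against 24000 with it. Control matrix 3 lay at 575 CPM of S100a8 and iKO matrices at 25.5 to 58.7. Without control matrix 1 the log2 values of S100a8, S100a9 and Cxcl2 were -3.87, -3.59 and -3.75, still called by edgeR against 1 control matrix assumed to vary like the iKO matrices. Control matrix 3 also held a barcode with 336 neutrophil-list UMIs, and without the myeloid-rich barcodes its list sum fell from 1276 to 422 CPM. Outside the pDCs the neutrophil list ran from 768 to 7446 CPM in iKO and from 5007 to 12530 in control, which overlapped, and its part in these calls was not tested. The fit without the 9 myeloid-rich barcodes also took in control matrix 2. There S100a8 and S100a9 were still called, at -1.81 and -1.76, and Cxcl2 fell short of the threshold (log2 value -2.27, edgeR adjusted p = 0.0981).

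Interferon-stimulated genes were higher in iKO pDCs in most matrices without passing the adjusted threshold. Of 72 listed genes 49 were tested, 48 had a value above 0, the median log2 fold change was 1.42, and edgeR called 0 of them, with 28 higher and 1 lower at an unadjusted p under 0.05. Over all 3558 genes the median was 0.005, 1801 were above 0 and 191 had an unadjusted p under 0.05. Of the tested list genes 17 lay higher in all 4 iKO matrices than in all 3 control matrices, against 173 of 3558 (4.86%), and Shisa5 was the 1 that lay lower. The summed level of the list, with no filter, was 24660, 23580, 13530 and 13630 CPM in iKO and 8340, 11320 and 9389 CPM in control. In this sum every iKO matrix was above the control matrices, and matrices 1 and 2 were above matrices 3 and 4. The summed macrophage list ran 2629, 4247, 581 and 490 CPM in iKO and 546, 820 and 1173 in control, so it was also highest in iKO matrices 1 and 2. Without the 9 myeloid-rich barcodes the interferon sums were 21760, 16840, 13530 and 13630 CPM in iKO and 9770, 11320 and 9417 in control. The order among matrices rests in part on list members that are also pDC identity genes, namely Bst2, Irf7, Ly6a and Ly6c2. With those left out, the remaining 67 genes summed to 11440, 12770, 3820 and 4669 CPM in iKO and 2746, 3855 and 3358 in control, so iKO matrix 3 lay below control matrix 2. Without the myeloid-rich barcodes these sums were 8396 and 6016 CPM in iKO matrices 1 and 2. Outside the pDCs, in all other kept barcodes, the full list ran from 18440 to 25310 CPM in iKO and from 7086 to 9466 in control. The higher level in iKO was therefore not particular to pDCs.

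Irf7, the factor that amplifies interferon production, lay at 1128, 1061, 469 and 373 CPM in iKO and at 51.2, 177 and 121 CPM in control, with no overlap. The log2 fold change was 2.86 ± 0.52 (SE; edgeR adjusted p = 0.0771). In single cells 19 of 20, 14 of 15, 13 of 14 and 15 of 15 iKO pDCs held an Irf7 UMI, against 1 of 5, 3 of 4 and 19 of 35 control pDCs. Without the myeloid-rich barcodes, and with matrices of at least 4 pDCs, Irf7 was at 950, 672, 469 and 373 CPM in iKO and 75.5, 177 and 128 in control. The fit of these 7 matrices also took in control matrix 2, which the main fit did not. There the log2 fold change of Irf7 was 2.26 with an edgeR adjusted p of 0.000854. Of 2706 genes 7 were called, 5 of them higher: Irf7, H2-Q7, H2-Q4, Ly6c2 and Ifi27l2a. With control matrix 2 taken in and no barcode left out, Irf7 was at 2.70 (edgeR adjusted p = 0.0394).

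Ly6c2, a Ly6 surface protein, lay at 4093, 3128, 1936 and 1669 CPM in iKO and 819, 1263 and 1160 in control, again without overlap (log2 fold change 1.40 ± 0.33, edgeR adjusted p = 0.258). Ifi27l2a, an interferon-induced mitochondrial protein, was at 3169, 3164, 1215 and 1490 CPM in iKO and 512, 1307 and 822 in control (1.68 ± 0.39, adjusted p = 0.258), so iKO matrix 3 fell within the control range. Ly6a was at 3578, 2629, 2224 and 2408 CPM in iKO and 1347, 2304 and 701 in control (1.43 ± 0.27, edgeR adjusted p = 0.0799). In the fit without the myeloid-rich barcodes and with control matrix 2, its log2 fold change was 0.89 (edgeR adjusted p = 0.169). Isg15, a ubiquitin-like protein attached to other proteins during an interferon response, split the iKO matrices: 702 and 625 CPM in matrices 1 and 2, and 58.7 and 81.6 in 3 and 4, beside 51.2, 66.5 and 23.7 in control (3.66 ± 1.13, adjusted p = 0.558). Without the myeloid-rich barcodes Isg15 in iKO matrix 2 was 116 CPM. The listed genes at 0 in every control matrix included Ifit1, with 18 UMIs in 9 iKO cells. Pooled over each genotype it was at least 3.34-fold higher, against a floor of 3 counts over the control group. The gene was named after its values were seen and the pooling holds no spread between matrices, so the fold is a description only.

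**Figure D3:**
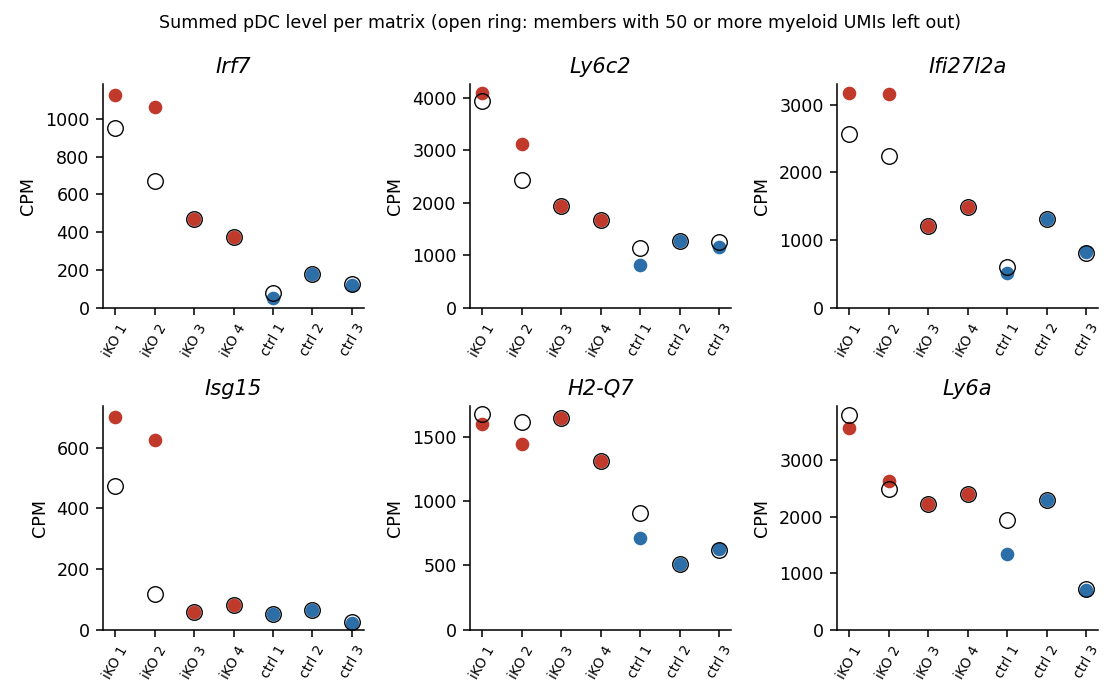
Summed level (CPM) of 6 genes in the pDCs of each matrix with pDCs, red for iKO and blue for control, where the open ring leaves out the 9 myeloid-rich barcodes. H2-Q7 and Irf7 do not overlap between genotypes, while Isg15 is raised in iKO matrices 1 and 2, less so in the ring of matrix 2.

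Cell by cell, 67 interferon-response genes took a median of 0.798%, 0.740%, 0.293% and 0.414% of a pDC's UMIs in iKO matrices 1 to 4. The pDC identity genes Bst2, Irf7, Ly6a and Ly6c2 were left out of them. In control matrices 1 to 3 the medians were 0.212%, 0.403% and 0.257%. iKO matrix 3 therefore lay within the control range, iKO matrix 4 just above its highest value, and iKO matrices 1 and 2 further above it. With the myeloid-rich barcodes left out, matrices 1 and 2 had medians of 0.759% and 0.606%. Cells in 1 matrix differed widely, from 0.222% to 3.56% in iKO matrix 1 and from 0.0939% to 1.34% in control matrix 3.

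**Figure D4:**
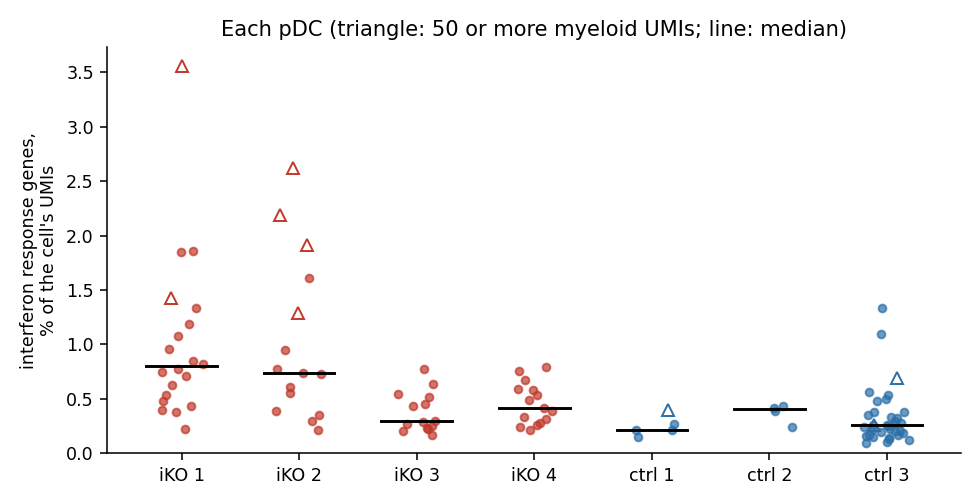
Percent of each pDC's UMIs from 67 interferon-response genes (Bst2, Irf7, Ly6a and Ly6c2 left out), by matrix, with medians as lines and triangles for barcodes with 50 or more myeloid UMIs. Medians of iKO matrices 1 and 2 (0.798% and 0.740%) lie above all others, and that of iKO matrix 3 (0.293%) is within the control range.

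The promoters of 3 of these genes are shown for the motif that interferon-activated factors recognise, as the 250 bases before the gene start from RefSeq (GRCm38.p6, a build other than the GRCm39 of the counts). Capitals mark matches to GAAANNGAAA or GAANNGAAA on either strand, which can overlap. They are Isg15, H2-Q7 and Irf7, chosen as a raised marker of interferon, the gene called higher and a factor whose levels did not overlap between genotypes.
Isg15, chr4:156200819-156201068, minus strand: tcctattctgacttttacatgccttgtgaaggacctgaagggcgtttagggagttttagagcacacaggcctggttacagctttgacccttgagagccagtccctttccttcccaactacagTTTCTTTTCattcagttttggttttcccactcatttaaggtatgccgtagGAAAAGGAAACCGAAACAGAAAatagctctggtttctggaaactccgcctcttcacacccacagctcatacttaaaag
H2-Q7, chr17:35438905-35439154, plus strand: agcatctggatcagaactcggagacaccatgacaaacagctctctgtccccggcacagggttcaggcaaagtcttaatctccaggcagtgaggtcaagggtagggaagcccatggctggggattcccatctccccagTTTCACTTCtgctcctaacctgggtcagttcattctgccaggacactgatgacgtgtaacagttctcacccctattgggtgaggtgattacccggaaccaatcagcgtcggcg
Irf7, chr7:141266425-141266674, minus strand: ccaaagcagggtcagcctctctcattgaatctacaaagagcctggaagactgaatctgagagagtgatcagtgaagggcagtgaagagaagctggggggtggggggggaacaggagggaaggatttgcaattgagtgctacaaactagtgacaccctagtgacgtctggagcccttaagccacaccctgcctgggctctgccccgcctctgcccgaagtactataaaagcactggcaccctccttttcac
Isg15 held 3 overlapping matches to the longer form and 1 to the shorter, H2-Q7 held 1 to the shorter form, and Irf7 held none in this window. At least 1 motif was found for 31 of the 58 listed interferon genes with an entry (53.5%) and for 9 of 19 MHC class I genes (47.4%). For all genes in the table the share was 10.2% (2745 of 27025). A match is a description of letters and was not tested as a binding site.

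Of the MHC class I and immunoproteasome list 23 genes were listed and 20 tested; all 20 had a value above 0, the median log2 fold change was 0.53, and H2-Q7 was the 1 called (11 of 20 lay above every control matrix, against 4.86% of all genes). H2-K1 was at 3893, 3748, 3644 and 2908 CPM in iKO and 2763, 2260 and 2169 in control, but without the myeloid-rich barcodes control matrix 1, at 3198 CPM, lay above iKO matrix 4. The summed level of the list was 16980 to 22640 CPM in iKO and 13240 to 14160 CPM in control. Without the myeloid-rich barcodes it was 16980 to 22900 CPM in iKO and 13280 to 16520 in control, so the groups came closer. Outside the pDCs it ran from 12960 to 16470 CPM in iKO and from 8361 to 11230 in control, so this difference was not particular to pDCs. MHC class II went no such way: 10 of 12 genes were tested, 2 were above 0, the median was -0.23 and 0 passed edgeR's adjusted threshold, with 1 at an unadjusted p under 0.05. Cd74, the invariant chain, lay at 8276, 5029, 8789 and 6995 CPM in iKO and 9176, 7068 and 6824 in control, which overlapped.

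Identity genes were also compared. Of 43 such genes 41 were tested, the median was 0.15, 24 were above 0 and edgeR called 0, with 4 higher and 2 lower at an unadjusted p under 0.05. Bst2 was at 4426, 4000, 5081 and 4516 CPM in iKO and 3377, 3722 and 4049 in control. In the sensing list 16 of 23 genes were tested and 0 passed by edgeR (3 at an unadjusted p under 0.05). Tlr7, the receptor for single-stranded RNA, lay at 150, 98.9, 141 and 128 CPM in iKO and 154, 199 and 89.6 in control, and Tlr9 had 13 UMIs in all. Flt3, the receptor for the growth factor of dendritic cells, was lower in all 4 iKO matrices, at 49.4 to 71.6 CPM against 102, 244 and 158 in control (edgeR adjusted p = 0.353). Without the myeloid-rich barcodes control matrix 1 was at 50.4 CPM, below the 70.4 to 83.0 of the iKO matrices, so the groups overlapped.

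Trex1 acts upstream of the cytosolic DNA sensor cGAS and its adaptor STING, so the genes of cytosolic nucleic acid sensing were listed too. Of 23 genes 12 were tested, the median was 0.69, 8 were above 0 and edgeR called 0, with 3 higher and 0 lower at an unadjusted p under 0.05. Sting1 lay at 115, 98.9, 64.5 and 51.0 CPM in iKO and 34.1, 88.6 and 111 in control, which overlapped. Zbp1, a sensor of Z-form nucleic acid that is itself interferon-induced, lay at 165, 265, 58.7 and 20.4 CPM in iKO and 17.1, 0 and 26.4 in control. Without the myeloid-rich barcodes Zbp1 in iKO matrix 2 was 99.6 CPM, and the summed list there went from 1559 to 730 CPM. In the receptor and JAK-STAT list 13 of 16 genes were tested, the median was 0.10 and edgeR called 0, with 3 at an unadjusted p under 0.05. Ifnar1, a chain of the type I interferon receptor, was at 158, 126, 188 and 230 CPM in iKO and 136, 199 and 169 in control.

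pDCs are built for secretion, and the secretory and unfolded protein response list had 17 of 18 genes tested, 15 above 0, a median of 0.28 and 0 calls by edgeR, with 4 higher at an unadjusted p under 0.05. Its sum was 6404 to 6944 CPM in iKO and 5270, 6602 and 5746 in control, which overlapped. Without the myeloid-rich barcodes control matrix 1 was at 6874 CPM, within the 6613 to 7161 of iKO. Xbp1, a factor of that response, was higher in all 4 iKO matrices, at 562, 580, 616 and 521 CPM against 307, 465 and 435 in control (edgeR adjusted p = 0.797). Lag3, an inhibitory receptor that binds MHC class II, had a UMI in 88.9% of pDCs, 14.8% of cDCs and 1.71% of B cells. Its level was 326, 427, 446 and 265 CPM in iKO and 358, 377 and 282 in control, so the genotypes overlapped. UMIs of at least 3 of 10 mitotic genes were found in 1 of 108 pDCs. Dissociation stress genes, of which 20 were tested, had a median of 0.13 and 0 calls by edgeR, with 2 higher and 4 lower at an unadjusted p under 0.05.

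**Figure D5:**
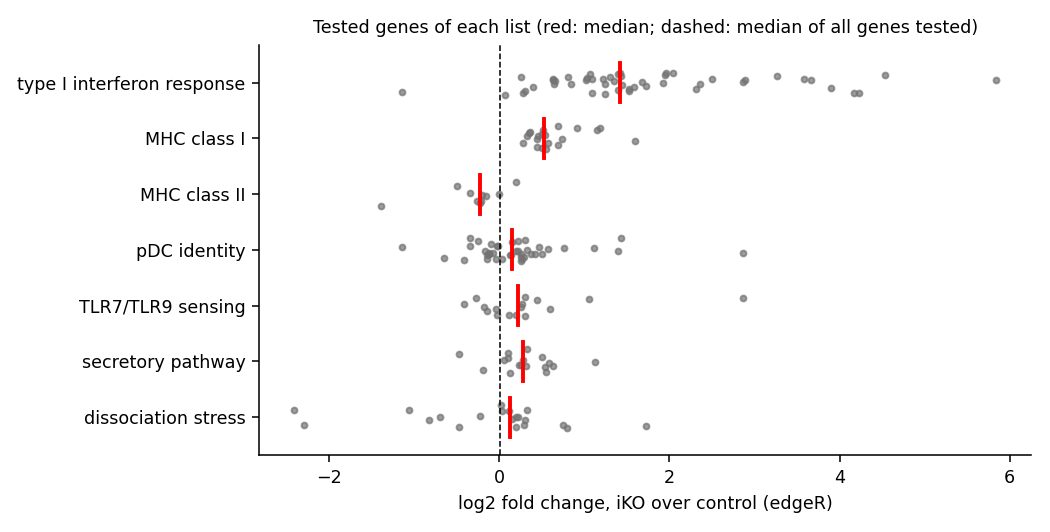
Log2 fold change, iKO over control, of the tested genes of 7 lists, with each list's median in red and the median of all 3558 genes as a dashed line. The type I interferon list is centred at 1.42 and MHC class I at 0.53, while the identity list lies at 0.15 and MHC class II at -0.23.

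The genotype effect in pDCs was compared with that in cDCs and in B cells of the same matrices, as a difference of effects with matrix as a block. Against cDCs edgeR called 1 of 8426 genes (0.0119%), and against B cells 0 of 5221 (0%), with 321 and 166 at an unadjusted p under 0.05. In simulated counts for the cDC comparison 28% of genes changed 4-fold were recovered, so most differences of this size or smaller would be missed. For Irf7 the log2 fold change was 2.48 in cDCs and 2.90 in B cells beside 2.86 in pDCs, and the difference from cDCs was 0.24 ± 0.41. The gene called was Igkc, the immunoglobulin kappa constant region. In pDCs it lay at 777, 548, 757 and 485 CPM in iKO and 341, 288 and 496 CPM in control, whereas cDCs held 2.28 ± 1.11 CPM in the iKO matrices and 16.3 ± 5.81 in the control matrices (SD, n = 4 each). The difference of effects was 3.62 ± 0.40 on the log2 scale (edgeR adjusted p = 0.00042), and the B cell marker Cd79a had 8 UMIs in all pDCs. Igkc was at 4810 to 9602 CPM in B cells, whose share was highest in control matrix 3, and the part of free B cell RNA in the cDC values was not tested.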

How the data were processed

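Single-cell 3' RNA profiles of 2 pools (4 hashtagged matrices each) were used as deposited by the authors: whole-number UMI counts per gene and barcode, made with Cell Ranger 7.1.0 on build GRCm39, per the submitters' processing notes. Hashtags (4) and spike-in features (92, with 0 UMIs) were left out, leaving 32432 genes. The rule gave 108 pDCs from 22490 kept barcodes. The members and gene lists were chosen with earlier results of these data known. Doublets were scored with Scrublet in scanpy 1.11.5 (expected rate 0.06).

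Counts were summed per matrix and scaled to CPM by the total of those sums. edgeR 4.0.16 (R 4.3.3; TMM, filterByExpr, quasi-likelihood, Benjamini-Hochberg) tested genotype in matrices with at least 5 pDCs, with the rule's 8 genes left out, and the differences of effects with a matrix block. Shares used exact permutation tests (scipy 1.17.1). Scripts were tested on simulated data. Alternatives included DESeq2 1.42.0, filters, thinning to 3000 UMIs and leaving out each matrix. Named genes were those called, the leading members of each list by level, and the 10 genes of highest pDC ratio; Irf7, Isg15, H2-Q4, Flt3, Tlr7, Tlr9 and Ifit1 were added after their values were seen.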

Additional observations from a re-analysis of the deposited data

Results flagged for a closer look

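In 20 groups of 4 matrices (shares and named genes), 3 had 1 matrix flagged as apart from the other 3, where chance gives about 1 in 20. S100a9 in iKO was at 106 CPM in matrix 3, against 30.6 to 39.4 in the others. H2-Q4 in iKO was at 274 CPM in matrix 2, against 304 to 306. Flt3 in iKO was at 49.4 CPM in matrix 2, against 70.4 to 71.6. In the iKO pDC sums 1 UMI was worth 3.58 to 5.87 CPM, so these gaps amount to small numbers of UMIs.

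The genotype effect on Igkc differed between pDCs and cDCs by 3.62 on the log2 scale, by a test of the difference itself (edgeR adjusted p = 0.00042).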

How the results depend on the processing

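The share differences kept their direction under every alternative run. They ran from 0.0222 to 0.452 percentage points of kept barcodes and from 7.03 to 22.4 points of dendritic barcodes. No exact permutation p was under 0.05, but with 1 matrix left out or with the replicate block none could be. A Siglech minimum of 2 UMIs left the pDCs as they were. With the replicate block, the exact permutation p was 0.375 and 0.125. For genotype in pDCs edgeR called 5 genes. DESeq2 called 12, no low-count filter 79, the replicate block 50 (20 higher), and leaving out 1 matrix 0 to 11: 0 without iKO matrix 1 or 4, 3 without iKO matrix 3 and 11 without control matrix 3. Deviations of same-numbered matrices correlated at 0.05, -0.20 and -0.03. With so few pairs, and 5 and 4 pDCs in control matrices 1 and 2, this cannot tell whether replicate numbers mark pairs. For the difference from cDCs (1 gene), no filter gave 31, every matrix 2, doublets removed 5, and leaving out 1 matrix 1 to 10 (4 without iKO matrix 2, 10 without control matrix 3). For the difference from B cells (0 genes), no filter gave 17 and leaving out 1 matrix 0 to 4 (1 without iKO matrix 2, 4 without control matrix 3). Leaving out a control matrix left 1 control in the gene fits, assumed to vary like the others. The causes were not tested. Removing doublets left out no pDC. The Siglech minimum of 5 used matrices with at least 4 pDCs. Of the 16 genes followed singly, none changed sign. Irf7 passed in 8 of 17 alternatives. The limits are 44 control pDCs, 35 of them in 1 matrix.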
